A study of Mus musculus with 6 samples.

Results

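Hair keratins, the keratin-associated proteins that embed them and 3 transcription factors of the hair follicle were examined in papillomas of the skin from mice labelled Atf2 wild type or knockout. Probes were taken by their gene symbol: any Krtap gene, Krt25 to Krt28, Krt31 to Krt36 with their lettered copies, Krt71 to Krt75, Krt79, Krt81 to Krt86, Dlx3, Msx2 and Foxn1. This gave 57 probes of 46 genes, out of 46116 probes and 17658 named genes on the array. Of 80 protein-coding mouse genes with such symbols in RefSeq, the other 34 had no probe listed under their symbol.

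Both groups were mice of a mixed FVB and C57bl6 background and had developed papillomas (benign tumours of the skin) when they were about 9 months old. All had received 1 application of the mutagen DMBA and then 30 weeks of the tumour promoter TPA, and the groups differed by the Atf2 genotype, WT or KO. Atf2 encodes a DNA-binding protein of the ATF and CREB family. Papilloma RNA was pooled, from 2 mice for the wild type and from 3 for the knockout, labelled with Cy3 and hybridised to Illumina bead arrays, 3 for each pool. Since a pool's arrays repeat 1 extract, the SDs, SEs and p-values below cover technical spread alone, and genotype itself was compared without replication. By the series' array names, the pools lay on separate stretches of a single chip, so place on the chip and genotype cannot be told apart. The sources used here do not state how Atf2 was deleted or in which cells.

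A hair shaft grows from the base of the follicle in concentric layers. Type I and type II hair keratins pair into filaments in the shaft, and keratin-associated proteins, rich in cysteine (high-sulphur) or in glycine and tyrosine, cross-link or fill the space between them. A further set of keratins builds the inner root sheath, a mould around the shaft, while the companion layer and the infundibulum, the funnel through which the hair leaves the skin, each have a keratin of their own. Foxn1, Msx2 and Dlx3 encode transcription factors needed for hair shaft differentiation, and Dlx3 is also expressed in the differentiating layers of the epidermis between follicles.

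Median raw intensity was 135.8 to 148.2 on the wild-type arrays and 109.9 to 135.5 on the knockout arrays, and 32.7% to 34.6% of all probes were above background on the former against 29.2% to 31.4% on the latter. The background itself was lower on the knockout arrays, with a mode of 99.2 to 121.9 against 120.5 to 132.8, so the raw values given below are not scaled between arrays, whereas log2 differences are taken after normalization, knockout minus wild-type pool. A probe was counted as above background when its raw intensity exceeded the mode of its array by 3 SDs. Keratinocytes, the epithelial cells of papillomas, were checked by 12 marker genes, Krt5 and Krt14 among them, and 12 of 12 were above background on some array. Of 4 probes of the targeted gene, Atf2, only probe 2260348 came above background, at 184.5, 176.2 and 186.3 in the wild-type and 171, 133.2 and 103 in the knockout pool. Whether these probes lie in the deleted stretch is not stated, so the labels could not be checked with them.

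Most hair genes were not detected in either pool. Of the 57 probes, 34 were above background on none of the 6 arrays (59.6%, against 60.7% of all probes), and 17 probes of 16 genes were above background on all 3 arrays of at least 1 pool (29.8%, against 32.3% of all probes). These shares lay close to those of the whole array. The 34 undetected probes read 99.6 to 168.6 in the wild-type and 78.1 to 153.9 in the knockout pool, and 26 genes had no probe above background at all. Another pattern, a signal above background on 3 of 3 wild-type arrays and on no knockout array, was seen for 7 probes (12.3%, against 2.48% of all probes), and the opposite pattern for 0 (0.384% of all probes).

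Against this low background, 2 hair probes rose and 2 fell in the knockout pool. Dlx3 and the type II hair keratin gene Krt84 were higher, and the inner root sheath keratin gene Krt27 and the infundibulum keratin gene Krt79 were lower. Probes were tested if their average log2 intensity was above that of the median probe, which left 25 hair probes of 23 genes (43.9%, against 50% of all probes). A probe passed at an adjusted p under 0.05 (limma, Benjamini-Hochberg over 23058 tested probes) together with a difference of at least 2-fold. The 4 that passed were 16% of the tested hair probes, where 4.88% of all tested probes passed. Rises made up 8% against 0.984% and falls 8% against 3.9%. With counts as small as 2 in each direction, these shares describe the 2 pools only.

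Log2 differences were negative for 45 of the 57 hair probes (78.9%, against 43.3% of all 46116 probes), dim ones included, with a median of -0.20 against 0.03. Most of these probes were at background. Among the tested ones, values were negative for 19 and positive for 6 of the 25 (17 and 4 without those past the threshold), with a median log2 difference of -0.28 and a range from -1.42 to 1.20, where all 23058 tested probes had a median of 0.05 and 40.6% negative values. By adjusted p alone, 13 were lower (52%, against 17.6% of all tested probes) and 2 were higher (8%, against 20.9%). Normalized values of the knockout pool lay entirely under those of the wild-type pool for 15 hair probes (60%, against 20.6% of all tested probes) and entirely above them for 2 (8%, against 27.8%). These counts lean on the filter for tested probes. For 8 of the 25, 1 each of Krt73, Krt75, Krtap14 and Krtap19-9b with 2 each of Krt86 and Krtap6-1, the wild-type mean alone exceeded it, so that they had to lie lower in the knockout pool, and they make up 7 of the 13 and 8 of the 15. No hair probe entered through the knockout pool alone. Of the 17 tested with both means over the filter, 11 were negative (64.7%, against 39.4% of all such probes). By adjusted p, 6 of the 17 were lower and 2 higher, where 3381 of all 20817 such probes were lower and 4555 higher. Of the 7 hair probes above background on all 6 arrays, 4 were negative, and all 11840 such probes had a median log2 difference of 0.11. The median moved with the processing and stayed below 0 in each setting tried, as given in the closing section. In tumour RNA, fewer follicle cells and less RNA per cell cannot be told apart.

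**Figure D1:**
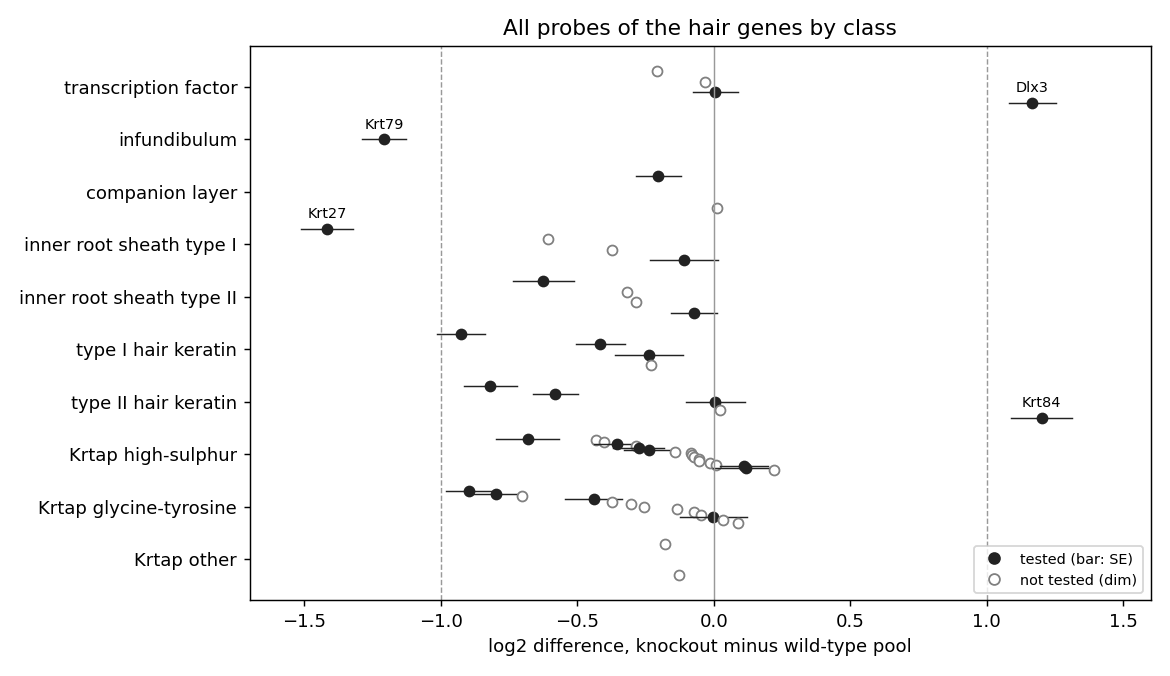
Log2 difference, knockout minus wild-type pool, of each of the 57 hair gene probes (x axis), grouped by class (y axis). Filled points were tested and carry their SE as a bar, open points were too dim to be tested, and dashed lines mark 2-fold. Krt27 and Krt79 lie beyond the left dashed line and Krt84 and Dlx3 beyond the right one.

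The sequences just upstream of the annotated starts are shown for Krt27, Krt79 and Krt84, the keratin genes of this set past the threshold. Krt34, the hair keratin gene closest to the limit on the low side, is shown beside them. Each sequence runs for 250 bases up to the base before the start, 5′ to 3′ on the gene's own strand, from RefSeq on build GRCm38.p6. Capitals mark matches to 5 motifs, searched on both strands. TGACG is the core of the site bound by ATF and CREB proteins, and TGACGTCA is the full site, which contains TGACG on each strand. TGANTCA is the site of AP-1 proteins. CTTTGA is the core of the site bound by LEF1, a partner of beta-catenin. TATAAA is a TATA box.
Krt27, chr11:99351119-99351368, minus strand: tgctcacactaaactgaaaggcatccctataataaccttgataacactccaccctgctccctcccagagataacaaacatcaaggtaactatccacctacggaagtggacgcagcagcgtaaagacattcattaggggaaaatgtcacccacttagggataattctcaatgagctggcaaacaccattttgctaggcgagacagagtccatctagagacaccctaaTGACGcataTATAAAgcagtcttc
Krt34, chr11:100041555-100041804, minus strand: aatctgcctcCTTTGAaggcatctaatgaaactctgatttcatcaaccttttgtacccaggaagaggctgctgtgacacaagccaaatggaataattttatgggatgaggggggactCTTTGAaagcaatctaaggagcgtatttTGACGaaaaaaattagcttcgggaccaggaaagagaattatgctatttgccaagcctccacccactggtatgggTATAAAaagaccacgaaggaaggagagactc
Krt79, chr15:101940325-101940574, minus strand: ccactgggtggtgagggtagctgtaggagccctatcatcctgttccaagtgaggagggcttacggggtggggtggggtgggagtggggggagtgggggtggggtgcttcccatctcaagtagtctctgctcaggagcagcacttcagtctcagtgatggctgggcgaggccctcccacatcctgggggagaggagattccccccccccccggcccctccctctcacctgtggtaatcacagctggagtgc
Krt84, chr15:101532821-101533070, minus strand: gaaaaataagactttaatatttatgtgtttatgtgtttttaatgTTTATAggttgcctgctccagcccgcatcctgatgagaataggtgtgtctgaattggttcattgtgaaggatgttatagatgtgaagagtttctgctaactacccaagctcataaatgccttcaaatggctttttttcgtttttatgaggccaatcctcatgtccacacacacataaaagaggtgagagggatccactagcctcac
In Krt27 a TGACG lay at bases -24 to -20 and a TATAAA at -15 to -10, counted from the start. Krt34 held a TGACG at -105 to -101, a CTTTGA at -240 to -235 and at -133 to -128, and a TATAAA at -31 to -26. Krt84 held a match to TATAAA at -206 to -201, on the opposite strand, and Krt79 held none of the 5 motifs in this window. Windows were found for 41 of the 46 genes, and Dlx3, which also passed the threshold, was not among them. The motif TGACG was in 4 of these 41 (9.76%; Krt27, Krt34, Krtap14 and Msx2), against 17.8% of all 32851 RefSeq windows of this length, and TGACGTCA was in 0 of 41 against 1.55%. The others were more frequent among the hair genes: CTTTGA in 10 (24.4% against 13.8%), TGANTCA in 7 (17.1% against 6.75%) and TATAAA in 29 (70.7% against 12.4%). These are matches of letters, not measured binding sites.

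Among the transcription factors, Dlx3 rose and the others were at background. For Dlx3 the 3 wild-type arrays read 992.2, 1018.9 and 950.8, and the 3 knockout arrays 1984.3, 1936.3 and 1732.1. Every knockout array lay above every wild-type array, and the probe was far above background throughout. This was a 2.25-fold rise (log2 difference 1.17, SE 0.09, limma adjusted p = 4.61e-07), and it passed under each alternative tried, between 1.11 and 1.24 on the log2 scale. Foxn1, the gene mutated in nude mice, read 113.8 to 121.4 in the wild-type and 78.1 to 103.9 in the knockout pool and was on no array above background. Of the Msx2 probes, 1 read 155.4, 152.2 and 168.6 against 147.5, 134.2 and 127.3, overlapping between pools after normalization (0.01, SE 0.08, adjusted p = 0.965), and the other read 99.6 to 114.1 against 91.4 to 91.6. Neither Msx2 probe was above background on any array, so for Foxn1 and Msx2 a difference was not detectable at this signal.

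The inner root sheath keratins were low in both pools, and Krt27 was the one that fell past the limit. Krt27, a type I keratin that pairs with type II keratins of the same sheath, read 302, 372.5 and 331.4 in the wild-type pool against 135.4, 123.1 and 112.8 in the knockout pool. All 3 wild-type values were above background and none of the knockout values was, so the knockout level is known only as a bound, and Krt27 was at least 2.02-fold lower there (limma adjusted p = 2.17e-07). Such a bound sets the brighter pool's mean against the background limit of the dim pool, or the probe's own value where higher. Krt26 was above background on all 6 arrays, at 227.9, 224.6 and 237.8 against 172.9, 163.9 and 179.6. Its normalized values overlapped between the pools, with a log2 difference of -0.11 (SE 0.12, limma adjusted p = 0.535).

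The remaining sheath keratins were at or near background. Krt25 read 172.7, 158.7 and 149.3 in the wild-type pool, above background on 1 array, and 90 to 108.2 in the knockout pool, and its difference of -0.61 was not tested because of its low mean. Krt28 was on no array above background (-0.37, not tested). Of the type II sheath keratins, Krt71 and Krt72 were at background throughout, and so was 1 of the 2 Krt73 probes. The other Krt73 probe (105360546) read 166.6, 176.1 and 171.1 against 105.8, 119.7 and 96.3, above background on 1 wild-type array, and was at -0.63 (SE 0.11, limma adjusted p = 0.000714), under the 2-fold limit. Values of all 8 sheath probes were below 0, from -1.42 to -0.07 on the log2 scale, where 43.3% of all probes were. Probes at background and probes too dim to be tested are among the 8.

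Outside the sheath, the infundibulum keratin gene fell while the companion layer gene was not detected. Krt79, whose protein lines the infundibulum and the duct of the sebaceous gland in mice, read 963.5, 968.7 and 953.7 in the wild-type pool against 389.5, 388.8 and 302 in the knockout pool. The pools did not overlap, and all 6 values were above background. Krt79 fell by 1.21 on the log2 scale, which is 2.31-fold (SE 0.08, limma adjusted p = 2.27e-07), and by 1.10 to 1.42 under the alternatives. Krt75, the keratin of the companion layer, read 145.6 to 165.8 against 111.5 to 128.1 on 1 probe and 99.6 to 116.2 against 89 to 98 on the other, with no value above background.

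**Figure D2:**
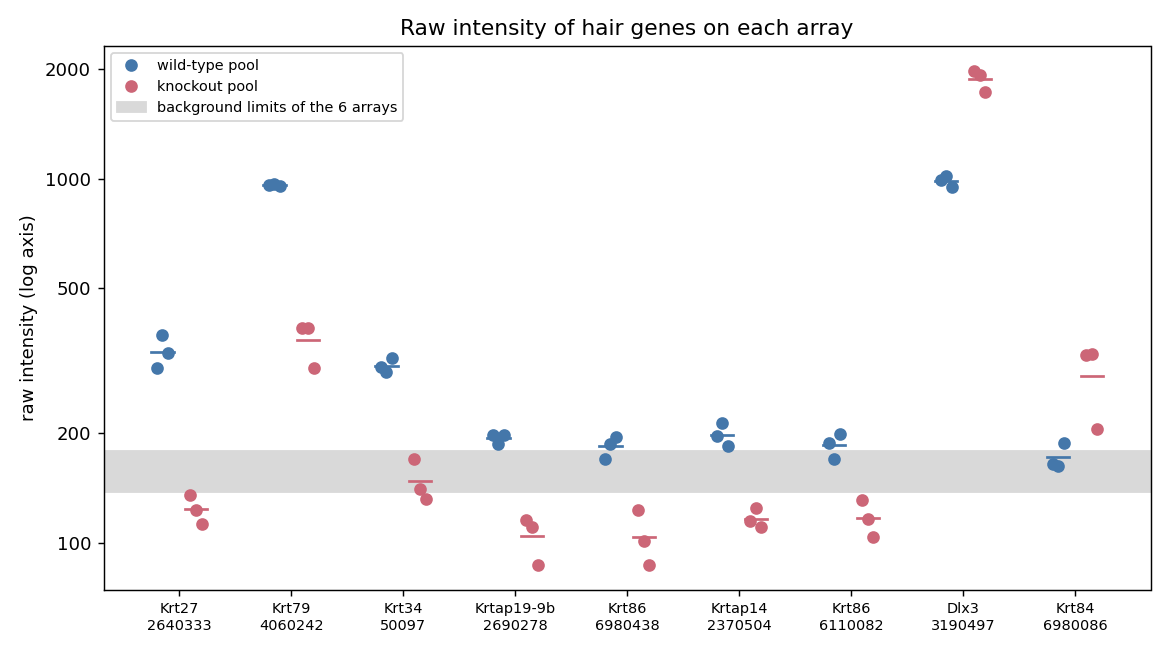
Raw intensity (y axis, log scale) of 9 hair gene probes on each of the 6 arrays, with symbols and probe numbers on the x axis. Points are arrays, short lines are pool means, and the grey band spans the background limits of the 6 arrays (137.7 to 178.1). Dlx3 and Krt79 lie well above the band in both pools, while the knockout values of Krt27, Krt86, Krtap14 and Krtap19-9b lie under it.

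Type I hair keratins, which form the acidic partner of the shaft filaments, were dim, and 0 of 3 tested probes passed the threshold in either direction (at an unadjusted limma p under 0.05, 2 were lower and 0 higher, where 20% of all tested probes were lower and 25.8% higher). Krt34, a keratin of the hair cortex, read 304.6, 294.2 and 321.8 in the wild-type pool against 169.8, 140.5 and 131.9 in the knockout pool, the latter above background on 1 array. The pools did not overlap, and the log2 difference of -0.93 (SE 0.09, limma adjusted p = 4.77e-06) stayed just inside 2-fold. It was past the limit with a normexp offset of 16 (-1.16) or with the background mode subtracted (-1.63). Krt33a, also of the cortex, read 244.6, 238.6 and 275.9 against 181.6, 164.2 and 138.2, was above background on all 6 arrays and was at -0.42 (SE 0.09, adjusted p = 0.00273). For Krt31 the values were 173.3, 161.4 and 181.6 against 149.1, 146.7 and 98.1. Those of the knockout pool were at background and overlapped the others after normalization (-0.24, SE 0.13, adjusted p = 0.163). Krt35, an early keratin of the hair matrix and cuticle, was on no array above background.

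Among the type II hair keratins, Krt84 rose and the other tested probes had log2 differences of -0.82 to 0.01. Krt84, which in humans is known from the filiform papillae of the tongue besides hard keratin tissues, read 164.8, 162.6 and 188 in the wild-type pool against 327.3, 330.6 and 205.6 in the knockout pool. Knockout array 3 was lower than the other two, and all 3 knockout values exceeded the wild-type values, which were close to the background limit and above it on 2 arrays. The rise was 2.30-fold (log2 difference 1.20, SE 0.11, limma adjusted p = 3.79e-06). With an offset of 100 (0.95) and with the authors' deposited log2 values (0.92) it stayed under 2-fold, and without knockout array 3 it was 1.33.

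Krt86, a type II keratin of the hair cortex, was low on both of its probes. Probe 6980438 read 169.9, 187.1 and 195.8 against 123, 101.3 and 87, and probe 6110082 read 188.3, 170.2 and 198.6 against 131.2, 116.4 and 103.9. On each probe the 3 wild-type values were above background and the 3 knockout values were not, so the bounds were at least 1.03-fold lower on the former and at least 1.04-fold lower on the latter, with log2 differences of -0.82 and -0.58 (limma adjusted p = 2.83e-05 and 0.000111) inside the 2-fold limit. Krt82, a keratin of the hair cuticle, was at background on both probes, and the tested one was at 0.01 (SE 0.11). The difference between Krt84 and the other type II hair keratins was not tested.

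High-sulphur keratin-associated proteins showed no call among 6 tested probes (at an unadjusted limma p under 0.05, 4 were lower and 0 higher, against 20% and 25.8% of all tested probes), and 11 of their 18 probes were on no array above background. Krtap3-3 read 303.9, 397.9 and 358.1 in the wild-type and 375.5, 283.6 and 239.9 in the knockout pool. Both pools were above background and overlapped (0.12, SE 0.12, limma adjusted p = 0.492). Krtap5-4 behaved alike on its probe 6510594, with 201.8, 200 and 229.7 against 189.5, 188 and 163.8 (0.11, SE 0.09), while its other probe was at background.

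The other high-sulphur genes above background in the wild-type pool had negative log2 differences inside 2-fold. Krtap13-1 read 233.3, 229 and 251.1 against 178.4, 160.7 and 160.2 (-0.24, SE 0.09, limma adjusted p = 0.0607), above background on all 6 arrays. Krtap26-1 read 204.4, 187.1 and 210.4 against 152.1, 139 and 140.1 (-0.28, SE 0.09, adjusted p = 0.0342), above background on 1 knockout array. Krtap14 read 196.9, 213.7 and 184.4 against 114.8, 124.5 and 110.2, with no knockout value above background (at least 1.11-fold lower; -0.68, adjusted p = 0.000484). Krtap9-3, at -0.35 (adjusted p = 0.00445), was above background on 2 wild-type arrays. The tested values of the high-sulphur class ran from -0.68 to 0.12.

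The glycine- and tyrosine-rich proteins, which are small fillers of the shaft, also showed no call among 4 tested probes (at an unadjusted limma p under 0.05, 3 were lower and 0 higher, against 20% and 25.8% of all tested probes, and those 3 were tested on account of their wild-type values). Krtap19-9b read 198.2, 187 and 197.6 in the wild-type pool against 115.4, 110.3 and 86.8 in the knockout pool. None of the knockout values was above background, so it was at least 1.10-fold lower, and its log2 difference of -0.90 (SE 0.09, limma adjusted p = 4.18e-06) was inside 2-fold. Krtap6-1 was measured by 4 probes. Probe 103440593 read 188, 189.1 and 186.5 against 120.3, 107.2 and 90.9 (at least 1.05-fold lower; -0.80, SE 0.08, adjusted p = 8.33e-06), a pair of further probes came above background on 2 wild-type arrays each and were at -0.70 (not tested) and -0.44 (adjusted p = 0.00495), and probe 2100193 was at background in both pools (-0.05). Krtap6-2, Krtap6-5, Krtap19-1, Krtap19-3, Krtap19-4, Krtap19-5 and Krtap21-1 were on no array above background, and neither were Krtap31-1 and Krtap31-2. Krtap genes form families of close copies, and probe sequences were not used here, so signal shared between copies cannot be told apart.

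All 7 probes above background in the wild-type pool alone (Krt27, Krt31, both of Krt86, Krtap14, Krtap19-9b and Krtap6-1) had negative log2 differences, from -1.42 to -0.24. A probe picked by that pattern is low in the knockout pool by construction. Among the 1134 tested probes of the whole array with the same pattern, 99.6% were negative and the median was -0.69.

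Genes that rose and genes that fell occurred in the same keratin gene clusters. On chromosome 11, Krt27 lies in the order Krt25, Krt26, Krt27, Krt28 and Krt10 in RefSeq, and Krt10, a keratin of the spinous epidermis and not a hair gene, rose by 1.52 on the log2 scale (limma adjusted p = 6.32e-08). Counted by the brightest probe of each gene, 19 of 32 keratin and Krtap genes of that cluster were tested, of which 3 rose (Krt10, Krt15 by 3.12 and Krt42 by 1.19) and 1 fell (Krt27), where 0.984% of all tested probes rose and 3.9% fell. On chromosome 15, 19 of 22 genes were tested, and 1 rose (Krt84) and 1 fell (Krt79) by that count. Also in this cluster, Krt6a passed the threshold on 2 dimmer probes (-3.90 each), while its brightest one gave -0.58. Krt79 sits between Krt4, a mucosal keratin gene at 1.00 and just under the limit, and Krt78 at 0.43. Krt84 sits beside Krt82, which was at background. Of 14 Krtap genes with a probe on chromosome 16, 6 were tested and 0 passed.

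**Figure D3:**
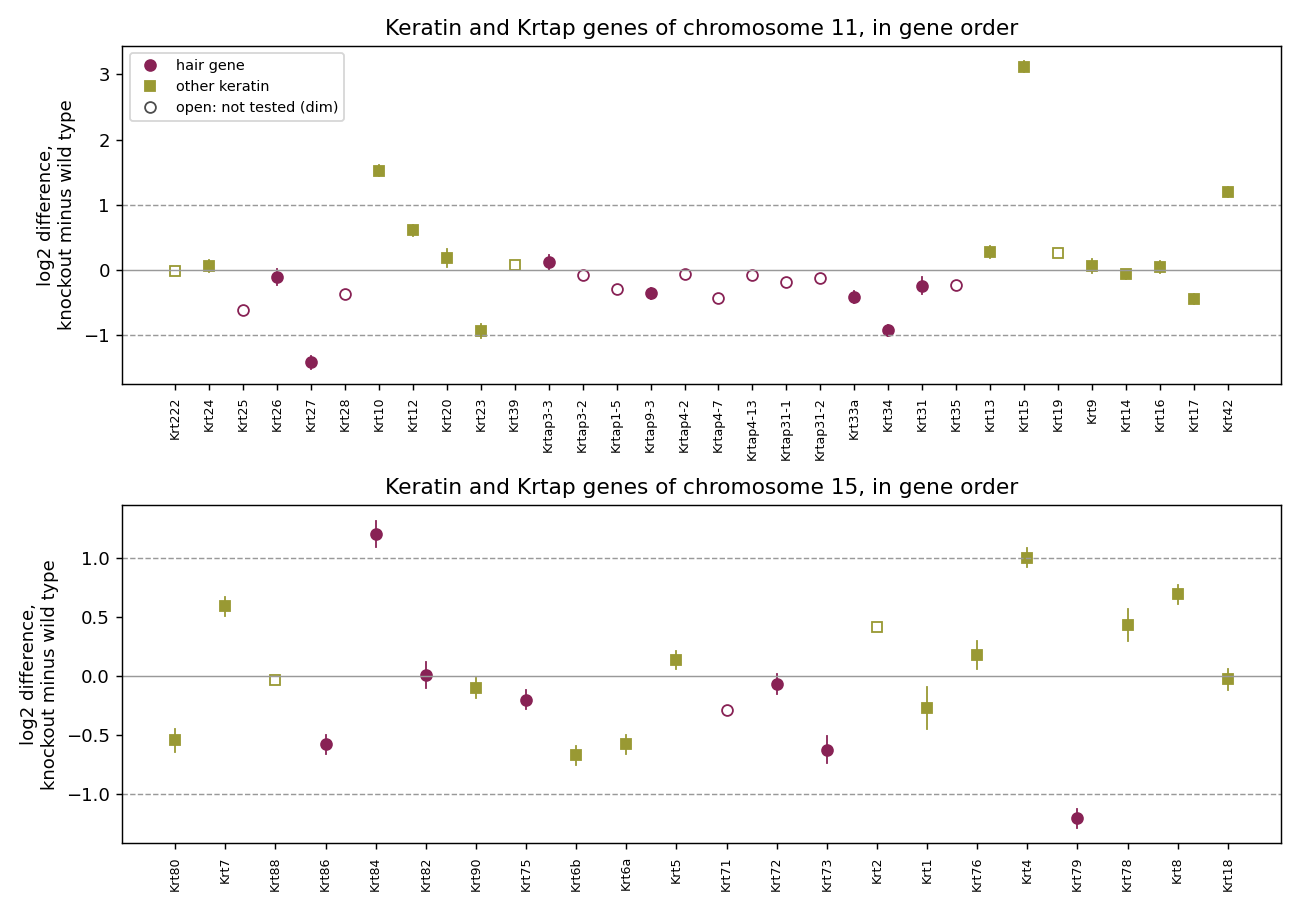
Log2 difference, knockout minus wild-type pool, of the brightest probe of each keratin or Krtap gene (y axis, bars are SE), in gene order along chromosomes 11 and 15 (x axis, evenly spaced). Circles are hair genes, squares are other keratins, open symbols were too dim to be tested and dashed lines mark 2-fold. Krt27 lies below the lower line near Krt10 above the upper one, and Krt79 lies below the line next to Krt4.

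Other follicle genes were taken as 3 lists. Of proteins that work beside the hair keratins, 8 of 11 listed genes had a probe, and 2 of 6 tested rose with 0 falls, where 0.984% of all tested probes rose and 3.9% fell (at an unadjusted limma p under 0.05, 4 were higher and 1 lower, against 25.8% and 20%). The lower one was Tgm3, at 775.6, 847.8 and 867.4 against 481.3, 427.5 and 497.1 (-0.58, SE 0.13, limma adjusted p = 0.00431). The genes past the threshold were Padi1 and S100a3. Padi1, a peptidylarginine deiminase, read 677.7, 621.6 and 663.3 against 1209.7, 1129.2 and 917.7 (1.03, SE 0.08, limma adjusted p = 1.30e-06). S100a3, a calcium-binding protein of the hair cuticle, read 386.5, 352 and 408.2 against 676.9, 585.4 and 532.6 (1.04, SE 0.10, adjusted p = 3.64e-06). In both, every knockout array lay above every wild-type array. Both sat just past the limit and were under it with the authors' deposited values (0.96 and 0.92), with an offset of 100 (0.96 and 0.93), with no background correction (0.98 and 0.96) and without wild-type array 2 (0.97 and 0.96). S100a3 was also under it without knockout array 3 and with scaling to the 75th percentile (both 0.99).

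Of 34 regulators of follicle growth and hair differentiation, 28 had a tested probe. Of their 45 tested probes 1 rose and 0 fell past the threshold, where 0.984% of all tested probes rose and 3.9% fell. At an unadjusted limma p under 0.05, 6 of the 45 were higher and 12 lower, against 25.8% and 20% of all. The rise was in Trps1, a zinc-finger transcription factor gene, on the dim probe 106510025, which read 234.4, 271 and 240 against 459.9, 453.4 and 324.8 (1.18, SE 0.09, adjusted p = 9.33e-07). Its brightest probe was at 0.19 and another at 0.12. On no array above background were Bmp2, Edar, Fgf5, Fgf18, Gli1, Lef1, Lgr5, Lhx2, Runx3, Shh and Wnt3, 11 genes that include the growth signal Shh and the transcription factor Lef1 of the growing hair bulb. The median over the brightest tested probes of this list was 0.01, close to that of all probes. Of 6 upper follicle genes, 3 were tested and 0 passed (at an unadjusted limma p under 0.05, 2 of 4 probes were lower and 0 higher, against 20% and 25.8% of all), with Plet1 at -0.91 and Lrig1, a stem cell marker of the upper follicle, at -0.66. These 2 were the brightest of their list.

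Markers of neighbouring cell types are given beside these results as the summed normalized intensity of the brightest probe of each gene. For the counts that follow, 0.984% of all tested probes rose past the threshold and 3.9% fell. At an unadjusted limma p under 0.05, 25.8% of all tested probes were higher and 20% lower. The 6 upper follicle genes summed to 1692 to 1729 in the wild-type and 1104 to 1222 in the knockout pool, and the 11 sebaceous genes with a probe to 6791 to 7232 against 5166 to 6323. Both sums were lower in the knockout pool, as Krt79 was, and so were the dermal papilla, melanocyte and keratinocyte sums given below. The other follicle lists differed from this. The 8 proteins beside the hair keratins summed to 2385 to 2599 in the wild-type and 3109 to 3454 in the knockout pool. Sums of the 34 regulators overlapped, at 15766 to 16565 in the wild-type and 15609 to 16773 in the knockout pool. The part of any of these in the Krt79 result was not tested. Among the sebaceous genes 1 of 7 tested fell, Cidea, a lipid droplet gene, by 1.09 (0.99 without knockout array 3), and the defining genes Awat1, Awat2, Elovl3, Far2, Mc5r and Scd3 were on no array above background. The 10 dermal papilla genes summed to 1556 to 1742 against 1346 to 1456, with 1 fall among 7 tested probes, in Sox2 on a probe not above background in the knockout pool (at least 1.64-fold lower), and with Corin, Fgf7, Hhip, Rspo3 and Tbx18 undetected. That sum takes the brightest Sox2 probe (630487), which was above background on all 6 arrays and at -0.87 (SE 0.12, limma adjusted p = 7.01e-05). By brightest probe, the other tested genes of that list differed less, with Crabp1 at -0.27, Rspo2 at -0.10, Alpl at -0.03 and Vcan at 0.07. The 10 melanocyte genes summed to 1150 to 1202 against 1044 to 1107, with 0 of 11 tested probes past the threshold (limma; at an unadjusted p under 0.05, 3 lower and 0 higher), Mitf, the brightest, at -0.15, and Gpr143, Mlana, Oca2, Pmel and Tyr undetected. The 12 keratinocyte genes summed to 209417 to 215386 against 184668 to 201688, with 3 probes higher and 4 lower among 20, led by Itga6 (1.81, with its brightest probe at 0.24) and Krt10 on the high side and by Krt6a (-3.90 on each of a pair of probes, with its brightest at -0.58) on the low side. The keratinocyte sum is weighted to the brightest keratins, of which Krt6b was at -0.68 and Krt17 at -0.45. Trp63 was at 0.40 and Krt5 at 0.14. By brightest probe, 7 of the 12 keratinocyte genes were negative and the median was -0.05, so the lower sum does not hold gene by gene. Each of these sums includes background signal.

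**Figure D4:**
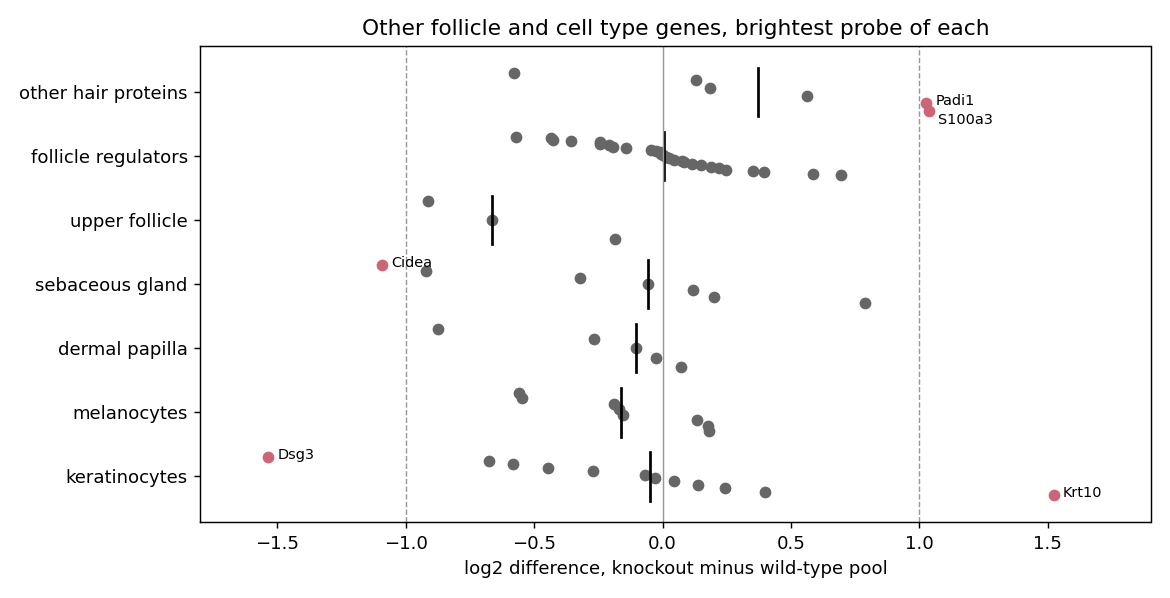
Log2 difference, knockout minus wild-type pool, of the brightest tested probe of each gene (x axis) in 7 lists (y axis). Coloured, named points passed the threshold on that probe, black bars are list medians and dashed lines mark 2-fold. Padi1 and S100a3 lie just right of the upper line, and the 3 upper follicle genes lie below 0.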

How the data were processed

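Per the file headers, the authors deposited 1 raw intensity per probe and array on a linear scale, with no detection p. Per the submitters' processing notes, BeadStudio 3 was used. Log2 values deposited by the authors for these arrays keep each array's rank order, with column medians of 7.25. Their normalization method was not stated, and they served as an alternative.

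Raw intensities were corrected with limma's normexp (offset 50), put on the log2 scale and made equal in distribution between arrays (quantile normalization). Differences of dim probes, most hair genes among them, are made smaller by the offset. Pools were compared with limma (version 3.58.1 in R 4.3.3; lmFit, and eBayes with its trend option). The test was checked on simulated data. Background was the mode of each array, with the SD of the values below it. Probes were named from GEO's platform annotation, in which 29534 of 46116 have 1 symbol, 11 several and 16571 none or no entry; 29476 matched RefSeq by Entrez identifier and 0 changed symbol.

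Hair probes were given with values on every array if above background on all 3 arrays of a pool, past the threshold, or of Dlx3, Msx2 or Foxn1; Krt25, Krt73 and others near background, Krt4, Krt10, Krt15, Krt42, Krt78 and Plet1 were added after their values were seen. The members and lists were chosen with earlier results of these data known. Alternatives changed the offset, background correction, scaling, filter, trend and replicate block, used the authors' values or left out each array. The 3 arrays per pool limit the precision.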

Additional observations from a re-analysis of the deposited data

How the results depend on the processing

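The 2 hair rises became 1 with a normexp offset of 100, with the authors' deposited values and among probes above background on all 6 arrays; the 2 hair falls became 6 with an offset of 16 (adding Krt34, Krt86, Krtap19-9b and Krtap6-1), 3 with the background mode subtracted and 1 among probes above background on all 6 arrays. The median of the tested hair probes (-0.28) was -0.22 with an offset of 100, -0.37 with 16, -0.24 with no background correction, -0.24 with the mode subtracted, -0.24 with 75th percentile scaling, -0.21 with the authors' values, -0.20 with no filter, -0.11 among probes above background on all 6 arrays, -0.42 among those above it on all 3 arrays of a pool, and -0.36 to -0.22 when 1 array was left out. Of the 17 hair probes above background on all 3 arrays of a pool, 7 were above it on no knockout array. Those 7 are low in the knockout pool by construction. The 75th percentile scaling put the median of all tested probes at 0.13. Over the whole array the rises (227) numbered 142 with an offset of 100, 389 with 16, 751 with the mode subtracted and 137 with the authors' values, and the falls (899) numbered 471 among probes above background on all 6 arrays. Rises on the 3 other follicle lists (3) numbered 1 with an offset of 100, 1 with no background correction and 0 with the authors' values, and 1 to 3 when 1 array was left out (1 without wild-type array 2); their falls (0) numbered 2 with an offset of 16, 2 with the mode subtracted and 0 to 1 when 1 array was left out (1 without the first wild-type array and 1 without either of the first 2 knockout arrays). When 1 array was left out, Krtap3-3 ran from -0.0045 to 0.21 and Msx2 probe 1570022 from -0.038 to 0.032, so their signs turned near 0 (Krtap3-3 and Msx2, at -0.0094, without wild-type array 1, and Msx2 without knockout array 3). The offset sets how far dim probes are shrunk; other causes were not tested. Among named probes, 497 values kept their call, 19 dropped under the limit and 7 passed it. Hair probes above background on all 3 arrays of a pool (17) numbered 12 at 4 SDs and 21 at 2, limits chosen after seeing the data.

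Replicate numbers mark arrays of different pools, and same-numbered arrays did not deviate together (correlations 0.11, -0.13 and 0.04). With the replicate block, 2 hair probes rose and 2 fell, and 227 and 901 of all probes did.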
